A study of Mus musculus with 36 samples.

Results

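The enzymes that cut, protect and crosslink the extracellular matrix were followed as transcripts in mouse liver. The set holds every gene of the deposited table named Mmp, Timp, Adamts, Adamtsl or Loxl with a number directly after it, and Lox itself. It comprises 56 of the 49315 genes listed: 23 matrix metalloproteinases (Mmp), 4 tissue inhibitors of metalloproteinases (Timp), 19 Adamts proteases, 5 Adamts-like genes and the 5 lysyl oxidases (Lox and Loxl1 to Loxl4).

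Matrix metalloproteinases are zinc enzymes, made as inactive precursors, that cleave collagens, elastin, proteoglycans and proteins of the cell surface. Timp proteins bind their active sites and block them. Adamts enzymes are secreted relatives that trim procollagen, cut proteoglycans and process von Willebrand factor, Adamts-like proteins lack the catalytic domain and bind fibrillin microfibrils, and lysyl oxidases crosslink collagen and elastin, which makes a scar stiffer and harder to degrade. In injured liver, stellate cells, macrophages, neutrophils and bile duct cells are known sources of these transcripts.

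PolyA RNA of whole liver was sequenced from 36 male mice aged 11 to 12 weeks, 4 in each of 9 groups. The mice differed at residue 441 of LXRalpha, a nuclear receptor for oxysterols: W/W mice, the homozygous controls, have tryptophan there on both alleles, F/F mice have phenylalanine on both, introduced with CRISPR, and W/F mice are heterozygous. The series text gives LXRalpha the symbol Nr1h2, while its usual symbol is Nr1h3. For each genotype there were mice fed chow, mice fed a diet that promotes metabolic dysfunction-associated steatohepatitis (MASH; Teklad TD.96121, 4 weeks) and gavaged with vehicle, and mice on that diet given the LXR agonist T0901317 at 10 mg/kg by daily gavage over the last 2 weeks. The groups on the MASH diet are called vehicle and T0901317 below, and replicates are different mice. The chow mice were an independent cohort for which no gavage is named, so that diet, cohort and gavage cannot be told apart in a comparison with chow. Transcript levels do not show the substituted residue: Nr1h3 stood between 79.1 and 124 TPM in every library.

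Levels are given as deposited, in TPM, a transcript measure corrected for gene length and scaled to the same sum in every library. Read totals recovered from the values ran from 18.1 to 35.8 M per library. The 6 hepatocyte markers examined summed to 71000 to 91700 TPM in W/W vehicle, 57400 to 64500 in W/F vehicle and 34900 to 37800 in F/F vehicle mice. Of the 6, 5 were called lower in F/F than in W/W vehicle mice, beside 7.13% of all genes, and 6 after rescaling, beside 26.5%. Their part in the results was not tested. In whole tissue, fewer cells of a type and less RNA per cell cannot be told apart. Differences were tested with limma on log2(TPM + 1), a scale that understates the change of low genes, in the 16638 genes that reached 1 TPM in 4 or more libraries. A gene is called when its Benjamini-Hochberg adjusted p over those genes is under 0.05. Most genes moved together in the mutants: the median gene was 0.70 higher on the log2 scale in F/F vehicle than in W/W vehicle mice, and 0.06 higher after TPM were rescaled by median-of-ratios factors, so the counts over the set are given on both scales. Along the first principal component (59.5% of the variance) T0901317 replicate 2 of the W/F mice stood apart, at 1.00 against 44.9 to 54.4 for the other 3, and so did T0901317 replicate 2 of the W/W mice, at 26.0 against 44.6 to 52.5.

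Of the 56 genes of the set, 35 passed the filter and 21 did not. Only 18 of the 35 reached 1 TPM in at least 4 of the 12 W/W libraries. The other 17 passed through the mutant groups where they were high, which favoured a difference from W/W mice in advance. They were Adamts4, Adamts5, Adamts6, Adamts9, Adamts14, Adamtsl5, Lox, Loxl4, Mmp7, Mmp8, Mmp9, Mmp11, Mmp12, Mmp13, Mmp27, Timp1 and Timp4. Mmp9 and Timp4 would not have passed without F/F vehicle mice, nor Adamts6 without F/F chow mice. All stay in the counts below, where their differences from those groups were partly fixed by the filter. The counts therefore describe the tested genes and not the whole set. The highest group mean of a tested gene fell in F/F vehicle mice for 24 genes, in W/F vehicle for 6, in F/F T0901317 for 3, in F/F chow for 1 (Adamts6) and in W/W T0901317 for 1 (Adamts15).

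The W/W mice gave few calls, but 17 of the tested genes were low in them, where the log2(TPM + 1) scale understates a change. On the MASH diet with vehicle, 0 of 35 genes were called against chow by limma, where 2.59% of all genes tested were called higher and 10.3% lower; 2 of the 35 had an unadjusted p under 0.05. After rescaling, 1 gene was lower, beside 8.4% of all genes, and 0 were higher, beside 7.05%. W/F and W/W chow mice likewise gave 0 calls of 35, beside 0.198% of all genes higher and 0.288% lower, again with 2 at an unadjusted p under 0.05. Vehicle mice of the mutant genotypes differed broadly from W/W. In W/F vehicle mice 33 of 35 were higher (94.3%), beside 61.6% of all genes, and 0 lower, beside 6.83%; after rescaling 32 were higher (91.4%) beside 28.7%. In F/F vehicle mice 32 were higher (91.4%), beside 69.3%, and 0 lower, beside 7.13%, and after rescaling 32 beside 32.3%, with 2 lower beside 26.5%. F/F mice differed on chow as well, where 28 of 35 were higher (80.0%) beside 43.0% of all genes, and 25 after rescaling (71.4%) beside 16.6%. These comparisons share their W/W mice.

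Here and below, a change with the diet is the difference of vehicle from chow mice, from which cohort and gavage cannot be separated. The diet raised 32 of 35 genes in W/F mice (91.4%), beside 52.4% of all genes, with 28 after rescaling (80.0%) beside 28.8%. In F/F mice, which started from a higher level on chow, it raised 29 (82.9%), beside 46.5%, and lowered 0, beside 9.27%, with 24 after rescaling (68.6%) beside 26.5% and 2 lower beside 20.6%. T0901317 lowered 33 of 35 in W/F mice (94.3%), beside 59.3% of all genes, and raised 0, beside 6.59%, and lowered 28 after rescaling (80.0%) beside 28.1%, with Adamts13 then higher beside 22.8%. In F/F mice it lowered 16 (45.7%), beside 31.2%, and raised 1, beside 3.95%. After rescaling 11 fell (31.4%), beside 8.5%, and 1 rose, beside 8.19%. The genes that fell include Mmp9 and Timp4 on both scales, which were tested only because F/F vehicle mice were high. The diet and T0901317 comparisons of a genotype share its vehicle mice, so that high values in those mice enter both counts. Without the T0901317 replicate 2 libraries of W/F and W/W mice, an alternative chosen after seeing the data, 31 genes were called for T0901317 in W/F and 19 in F/F mice. After T0901317, W/F mice differed from W/W mice in 1 gene of the set, Adamts7, called higher beside 3.65% of all genes, with 0 lower beside 6.23%; after rescaling 3 were higher, beside 5.18%, and 1 lower, beside 8.38%. F/F mice then had 30 of 35 higher than W/W (85.7%), beside 56.3%, and 0 lower, beside 6.96%; after rescaling 25 were higher, beside 25.4%, and 1 lower, beside 21.5%.

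**Figure D1:**
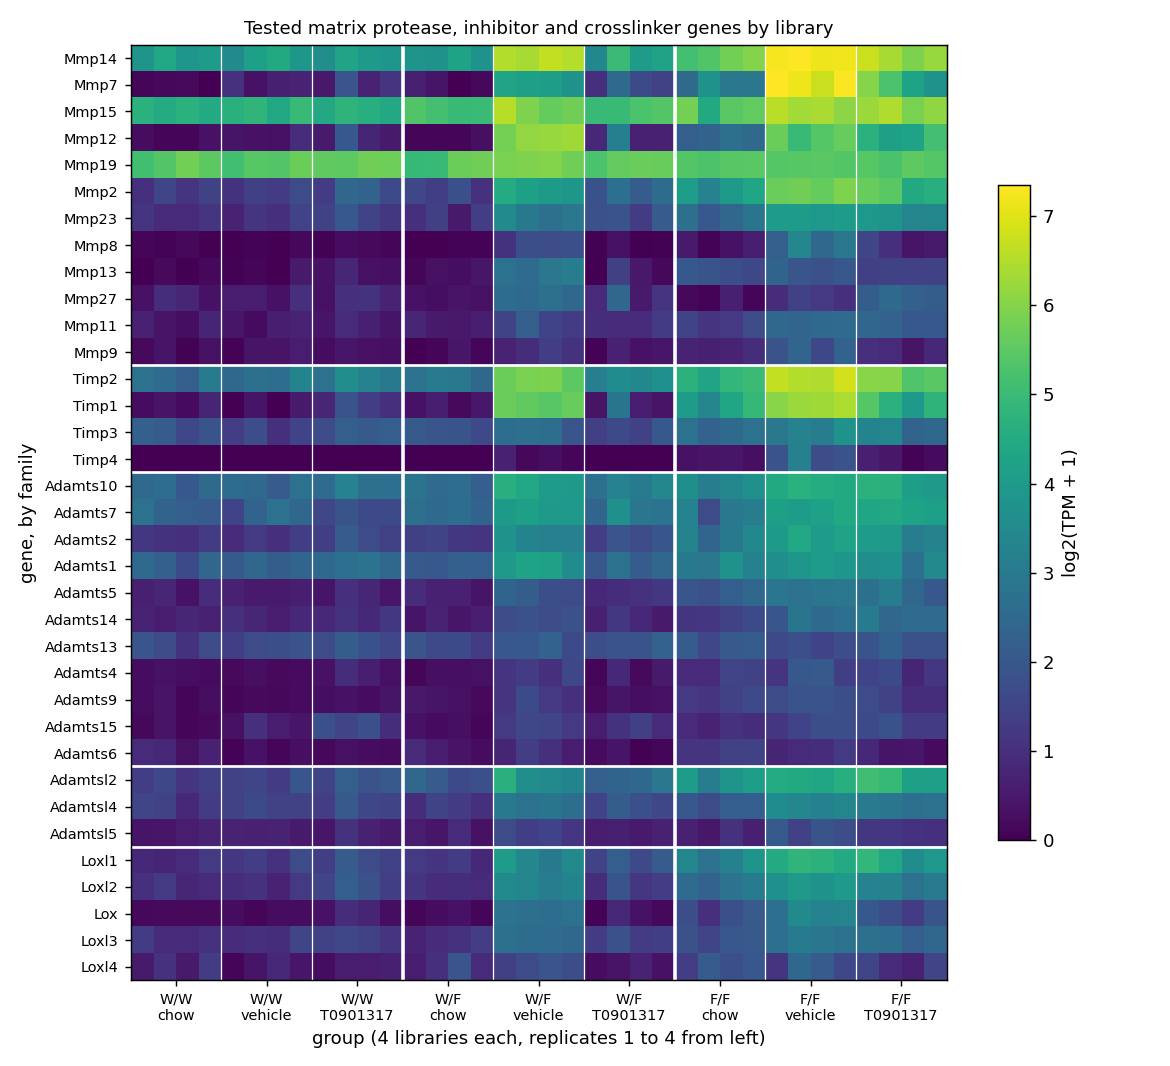
Level of the 35 tested genes in each of the 36 libraries as log2(TPM + 1), by family from top (Mmp, Timp, Adamts, Adamtsl, Lox family) and by group from left, 4 libraries per group in replicate order. W/W libraries and W/F chow libraries stay dark for most genes, W/F vehicle and all F/F groups are brighter, and W/F T0901317 libraries return close to the dark level, replicate 2 less so.

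A cluster of 10 metalloproteinase genes lies side by side on chromosome 9 (GRCm38, positions 7272514 to 7699585). They include the collagenases Mmp13 and Mmp8, the macrophage elastase Mmp12, the stromelysins Mmp3 and Mmp10, the matrilysin Mmp7, and Mmp27, Mmp20, Mmp1a and Mmp1b. The sequence before the gene start is shown for 3 of them, because Mmp13 and Mmp7 carry a match to the AP-1 motif and Mmp27 does not. Mmp7 was higher in F/F than in W/F vehicle mice, while Mmp13 and Mmp27 were lower, so that motif and direction did not split these genes alike. Capitals mark TGANTCA, the AP-1 site bound by Fos and Jun proteins, which reads the same on both strands. The 250 bases end just before the RefSeq gene start (GRCm38.p6, plus strand) and lie at chr9:7272264-7272513 for Mmp13, chr9:7691840-7692089 for Mmp7 and chr9:7571146-7571395 for Mmp27.
Mmp13: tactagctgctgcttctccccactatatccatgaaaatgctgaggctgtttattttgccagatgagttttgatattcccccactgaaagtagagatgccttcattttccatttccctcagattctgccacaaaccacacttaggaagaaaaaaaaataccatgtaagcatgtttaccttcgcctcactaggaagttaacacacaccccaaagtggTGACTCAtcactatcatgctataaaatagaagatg
Mmp7: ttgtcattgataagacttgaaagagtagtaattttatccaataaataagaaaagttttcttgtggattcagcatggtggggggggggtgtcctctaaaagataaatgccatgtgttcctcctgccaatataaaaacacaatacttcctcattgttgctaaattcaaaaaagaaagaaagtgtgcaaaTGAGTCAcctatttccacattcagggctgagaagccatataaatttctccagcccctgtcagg
Mmp27: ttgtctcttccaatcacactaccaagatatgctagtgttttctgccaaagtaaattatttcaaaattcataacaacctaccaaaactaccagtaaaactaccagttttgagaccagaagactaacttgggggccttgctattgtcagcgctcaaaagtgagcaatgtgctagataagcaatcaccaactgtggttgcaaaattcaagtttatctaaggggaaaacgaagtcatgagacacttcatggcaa
The match began 35 bases before the start of Mmp13 and 63 bases before that of Mmp7. Promoters of 37 of the 56 genes were in the RefSeq table, and 7 of them (18.9%) held an AP-1 match: Mmp13, Mmp7, Mmp3, Mmp10, Mmp20, Mmp1a and Mmp1b, all of the chromosome 9 cluster. Of 32817 mouse promoters of the same length, 6.75% held one. TATAAA, searched on both strands, was found in 10 of the 37 (27.0%) and in 12.4% of all promoters. The DR4 motif, a direct repeat of AGGTCA with 4 bases between, which LXR reads with its partner RXR, was searched on both strands and found in 0 of the 37 and in 5 of all promoters. A match is a run of letters and not a measured site. Of the 7 genes with the AP-1 letters, 5 stayed below the filter, so that neighbours with the same motif stood at very different levels.

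Mmp7, a small secreted protease of epithelial cells (ENSMUSG00000018623, chr9:7692090-7699585), had the largest difference of the set between F/F and W/W vehicle mice on the log2(TPM + 1) scale; by the ratio of group means, Timp1 differed more. It stood at 1.06, 0.284, 0.566 and 0.644 TPM in W/W vehicle mice, at 18.4, 16.7, 16.3 and 12.4 in W/F vehicle mice and at 160, 142, 106 and 157 in F/F vehicle mice. The 3 groups do not overlap. Mmp7 reached 1 TPM in only 3 W/W libraries, so it passed the filter through the mutant groups. The log2 fold change of F/F against W/W was 6.44 (SE 0.35, limma adjusted p = 1.11e-15) and that of F/F against W/F was 3.06 (SE 0.35, limma adjusted p = 3.55e-07). On chow, F/F mice already had 4.85, 12.8, 6.75 and 6.50 TPM, and the diet raised Mmp7 by 4.09 in F/F and by 3.77 in W/F mice. With T0901317 it stood at 0.994, 4.79, 2.13 and 1.69 TPM in W/F mice and at 63.2, 37.5, 18.3 and 12.3 in F/F mice, changes of -2.42 and -2.32, all below the vehicle mice of the same genotype. Bile duct markers were high in the same groups: the 6 examined summed to 54.0 to 61.5 TPM in W/W vehicle, 1160 to 1590 in W/F vehicle and 2910 to 3560 in F/F vehicle mice. All 6 were called higher in F/F than in W/F vehicle mice on both scales, beside 19.0% of all genes (6.1% after rescaling). Their part in the Mmp7 result was not tested. Reads of Mmp7 share 11.5% of its exon length with AV064505 on the other strand, a gene at 0.313 TPM or less in every group mean.

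Mmp12, the metalloelastase of macrophages, took another order. It was at 0.328, 0.280, 0.264 and 0.896 TPM in W/W vehicle mice, 54.9, 70.2, 73.6 and 77.4 in W/F vehicle mice and 51.2, 30.6, 41.4 and 49.3 in F/F vehicle mice, so that every W/F mouse was above every F/F mouse. That difference, -0.68 on the log2 scale, was not called (limma adjusted p = 0.174), nor was it after rescaling (-0.865, limma adjusted p = 0.13). The difference was called without the T0901317 replicate 2 libraries of W/F and W/W mice, which are in neither group (0.0055). It was also called with only the groups compared in the fit (0.0243). The diet raised Mmp12 by 5.96 in W/F mice (SE 0.36, limma adjusted p = 2.59e-14), the largest diet change of the set, and by 2.98 in F/F mice, whose chow level was 4.52 ± 0.83 TPM (SD, n = 4). T0901317 brought it to 0.794, 7.97, 0.598 and 0.604 TPM in W/F mice, where replicate 2 is the high one, a fall of 4.78 (limma adjusted p = 9.51e-12). In F/F mice it was at 25.1, 17.0, 18.2 and 34.8 TPM with T0901317, overlapping vehicle (limma adjusted p = 0.0576). Of 8 macrophage markers, 6 rose and 1 fell with the diet in W/F mice on both scales, beside 52.4% and 8.53% of all genes (28.8% and 25.6% after rescaling). In F/F against W/W vehicle mice 5 were higher and 3 lower on both scales. All genes gave 69.3% and 7.13% (32.3% and 26.5% after rescaling). In F/F against W/F vehicle mice 0 were higher and 2 lower on both scales. The shares of all genes were 19.0% and 2.3% (6.1% and 4.54% after rescaling). Gpnmb averaged 435 TPM in W/F vehicle and 519 in F/F vehicle mice against 1.18 in W/W vehicle, while Clec4f, which marks resident Kupffer cells, averaged 45.0, 0.354 and 72.3 TPM in those groups. W/F T0901317 replicate 2 also had the highest summed macrophage markers of its group, at 372 TPM where the lowest mouse had 84.5. The part of these cells in the Mmp12 result was not tested.

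Mmp13 and Mmp27 were lower in F/F than in W/F vehicle mice. Mmp13, the main interstitial collagenase of the mouse, stood at 5.74, 4.97, 6.57 and 7.68 TPM in W/F vehicle mice and at 4.21, 2.84, 2.56 and 2.98 in F/F vehicle mice, which do not overlap, a difference of -0.81 (SE 0.19, limma adjusted p = 0.00348; -0.91 after rescaling). It was 0.139 ± 0.204 TPM in W/W vehicle mice, reached 1 TPM in 0 W/W libraries and passed the filter through the mutant groups. In F/F mice it was already at 3.04, 2.75, 2.39 and 1.99 TPM on chow, against 0.0665 ± 0.0777 in W/W chow mice (log2 fold change 1.73, limma adjusted p = 4.21e-08), and the diet changed it by 0.22 without a call. T0901317 lowered Mmp13 in W/F mice by 2.34 on the log2 scale (to 0, 1.60, 0.405 and 0.107 TPM) and in F/F mice by 0.61 (to 1.61, 1.70, 1.69 and 1.76 TPM; limma adjusted p = 0.0156, and 0.209 after rescaling).

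Mmp27, a little studied stromelysin-like member, was the only tested gene that T0901317 raised in F/F mice. It stood at 5.04, 4.68, 5.52 and 4.60 TPM in W/F vehicle mice but at 0.926, 1.67, 1.34 and 0.983 in F/F vehicle mice, a log2 difference of -1.43 (SE 0.25, limma adjusted p = 0.000137). The difference of F/F from W/W vehicle mice, which averaged 0.555 TPM, was not called (0.526, limma adjusted p = 0.0527). With T0901317 the F/F mice had 3.50, 4.71, 3.74 and 3.50 TPM, all above their vehicle mice (1.13, limma adjusted p = 0.00106; 1.19 after rescaling). W/F mice went the other way, to 0.841, 4.42, 0.441 and 1.20 TPM (-1.33, limma adjusted p = 2.49e-05), with replicate 2 near the vehicle level. The response of F/F mice was higher than that of W/W mice by 0.96 (limma adjusted p = 0.0349).

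Mmp8, the collagenase stored in neutrophil granules, averaged 0.0408 TPM in W/W vehicle, 2.08 ± 0.66 in W/F vehicle and 6.07 ± 2.59 in F/F vehicle livers (SD, n = 4). The 4 F/F vehicle mice had 3.70, 9.54, 4.56 and 6.48 TPM and the 4 F/F T0901317 mice had 1.90, 1.01, 0.327 and 0.456, a fall of 1.88 without overlap (limma adjusted p = 8.13e-08). In W/F mice the diet raised it by 1.56 and T0901317 lowered it by 1.48. The neutrophil marker Ly6g was listed at 0 in all W/W chow, W/F chow and W/F T0901317 mice and averaged 0.223 TPM in W/F vehicle and 1.58 in F/F vehicle mice. The 6 neutrophil markers summed to 128 to 377 TPM in F/F vehicle mice against 4.11 to 8.53 in W/W vehicle. Of 5 tested, 4 were higher in F/F than in W/W vehicle mice, beside 69.3% of all genes. After rescaling 4 were higher and 1 lower, beside 32.3% and 26.5%. In W/F against W/W vehicle mice 3 were higher and 1 lower on both scales, beside 61.6% and 6.83% (28.7% and 24.3% after rescaling). Their part in the Mmp8 result was not tested. The other 5 genes of the cluster were low: in F/F vehicle mice Mmp3 averaged 0.801 TPM, Mmp10 0.298 and Mmp1b 0.0179, Mmp20 averaged 0.0174 TPM in W/F vehicle mice, and Mmp1a, annotated as a polymorphic pseudogene, was listed at 0 in all 36 libraries.

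**Figure D2:**
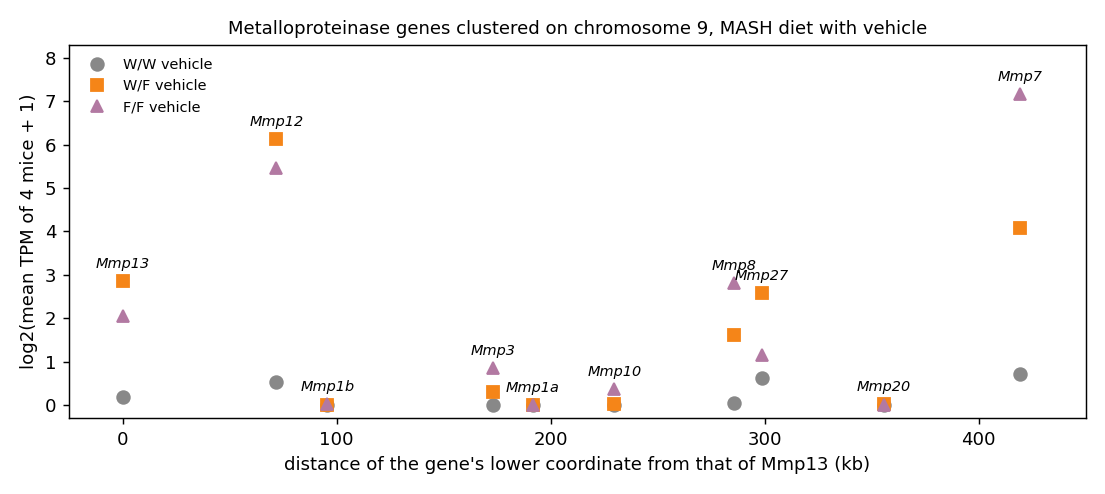
Mean TPM of 4 mice, drawn as log2(TPM + 1), for the 10 metalloproteinase genes of the chromosome 9 cluster against the distance of each gene from Mmp13 in kb, in vehicle mice of the 3 genotypes. Mmp7 is highest in F/F mice (141 TPM), Mmp12, Mmp13 and Mmp27 are highest in W/F mice (69.0, 6.24 and 4.96 TPM), and Mmp1a, Mmp1b and Mmp20 lie near 0 in all of them.

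The gelatinase Mmp2 and the 2 tested of 6 membrane-bound enzymes, Mmp14 and Mmp15, were called higher in W/F and in F/F than in W/W vehicle mice. These calls held on both scales, beside 61.6% and 69.3% of all genes (28.7% and 32.3% after rescaling). Mmp2, a gelatinase of mesenchymal cells (ENSMUSG00000031740, chr8:92827291-92853420), stood at 1.10, 1.65, 1.43 and 2.19 TPM in W/W vehicle mice, 21.9, 17.1, 15.2 and 13.9 in W/F vehicle and 49.8, 53.6, 48.2 and 60.4 in F/F vehicle mice, 3 groups that do not overlap. F/F was above W/F by 1.60 (SE 0.26, limma adjusted p = 7.76e-05). On chow F/F mice had 16.5, 8.53, 14.7 and 18.9 TPM against 1.43 ± 0.41 in W/W (2.65, limma adjusted p = 4.85e-09). T0901317 took Mmp2 down to 4.15 ± 1.36 TPM in W/F mice (-1.83). In F/F mice it left 48.6, 43.6, 20.9 and 23.8 TPM, with replicates 1 and 2 close to the vehicle mice (-0.70, limma adjusted p = 0.0371, and 0.200 after rescaling). Mmp9, the gelatinase of neutrophils and macrophages, which is named here after its values were seen, was much lower. It stood at 2.67, 4.29, 2.03 and 4.01 TPM in F/F vehicle mice, 0.297 ± 0.173 in W/W vehicle and 0.729 ± 0.293 in F/F T0901317 mice. Only 7 libraries reached 1 TPM, all F/F vehicle mice among them, and without that group it would not have passed the filter. Its differences from F/F vehicle mice are therefore given as values and not as a test result.

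Mmp14, the membrane enzyme that activates pro-Mmp2 (ENSMUSG00000000957, chr14:54431612-54445364), had the highest mean of any gene of the set. It stood at 10.3, 16.8, 21.2 and 13.8 TPM in W/W vehicle mice, 89.6, 83.0, 100.3 and 92.2 in W/F vehicle and 149.9, 162, 144 and 146 in F/F vehicle mice. The F/F mice were above W/F by 0.72 (limma adjusted p = 0.0289, and 0.0886 after rescaling). On chow the F/F level was 47.9 ± 13.0 TPM against 15.6 ± 3.1 in W/W (1.54, limma adjusted p = 6.60e-06), and the diet raised Mmp14 by 2.65 in W/F and by 1.67 in F/F mice. With T0901317 W/F mice returned to 9.88, 31.4, 15.7 and 17.8 TPM, replicate 2 being the high one (-2.34, limma adjusted p = 1.57e-09), and F/F mice to 108, 82.5, 58.1 and 73.8 (-0.93, limma adjusted p = 0.00375). Mmp15, a membrane-type relative that hepatocytes express, was 25.2 ± 4.2 TPM in W/W vehicle, 63.6 ± 20.7 in W/F vehicle and 81.7 ± 12.0 in F/F vehicle mice; F/F exceeded W/W by 1.66 and W/F exceeded W/W by 1.27, and by 0.85 and 0.65 after rescaling, all called. Its fall of 0.82 with T0901317 in W/F mice (to 34.6 ± 5.3 TPM) was not called after rescaling (-0.25, limma adjusted p = 0.274). Mmp23 averaged 1.15 TPM in W/W vehicle, 7.32 in W/F vehicle, 2.5 in W/F T0901317, 15.2 in F/F vehicle and 11.4 in F/F T0901317 mice, and rose by 2.94 in F/F against W/W vehicle. The stromelysin Mmp11 rose by 1.98 in the same comparison, to 4.60 ± 0.32 TPM.

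Mmp19, which degrades basement membrane components, behaved unlike its relatives. It stood at 33.7, 42.2, 41.0 and 50.7 TPM in W/W vehicle mice and at 41.8, 42.8, 43.3 and 40.7 in F/F vehicle mice, overlapping groups with a log2 difference of 0.02 (limma adjusted p = 0.897); after rescaling it was lower in F/F by 0.79 (limma adjusted p = 5.55e-06). In W/F vehicle mice it was 58.1, 60.5, 61.9 and 52.5 TPM, above every W/W and every F/F vehicle mouse. The difference from W/W, 0.48 (limma adjusted p = 0.00458), was -0.15 after rescaling and then not called. In W/W vehicle mice Mmp19 made up 47.3% ± 1.4 of all metalloproteinase TPM (SD, n = 4), and 7.70% ± 0.67 in F/F vehicle mice. Its exons overlap genes on the other strand, Tmem198b and Gm47093, over 28.3% of their length, and since it is not stated whether counting used strand, these reads cannot be told apart; Tmem198b averaged 3.29 to 7.15 TPM over the groups.

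**Figure D3:**
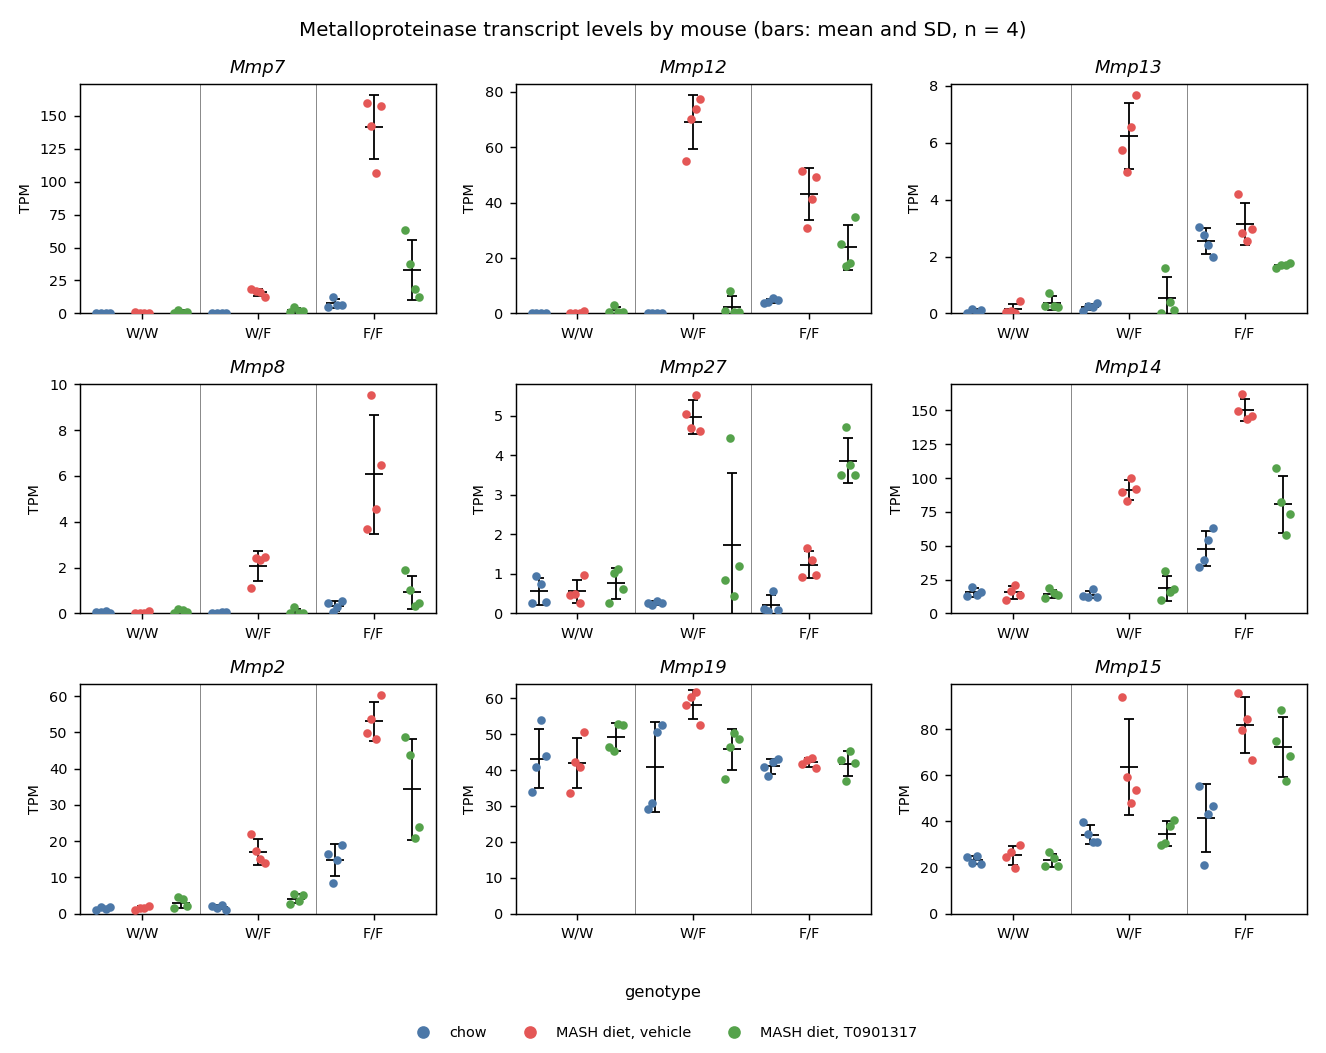
TPM of 9 metalloproteinases in each mouse (points) with the mean and SD of 4 mice (bars), by genotype, in chow (blue), vehicle (red) and T0901317 (green) groups. Mmp7, Mmp2, Mmp8 and Mmp14 are highest in F/F vehicle mice, Mmp12, Mmp13 and Mmp27 in W/F vehicle mice, Mmp27 is higher with T0901317 than with vehicle in F/F mice, error bars reaching below 0 are cut at the axis, and Mmp19 stays between 29.2 and 61.9 TPM in every mouse.

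Of the 4 inhibitors, Timp1, Timp2 and Timp3 were called higher in W/F and in F/F than in W/W vehicle mice, on both scales. The shares of all genes called higher were 61.6% and 69.3% (28.7% and 32.3% after rescaling). Timp1 reached 1 TPM in only 3 W/W libraries, so it passed the filter through the mutant groups. Timp1, which blocks most soluble metalloproteinases (ENSMUSG00000001131, chrX:20870166-20874735), was at 0, 0.342, 0 and 0.443 TPM in W/W vehicle mice, 50.4, 46.1, 42.2 and 48.9 in W/F vehicle and 65.3, 75.5, 78.6 and 86.3 in F/F vehicle mice. F/F mice were all above W/F mice, but the difference of 0.69 was not called (SE 0.37, limma adjusted p = 0.182). Nor was it called after rescaling (0.497, limma adjusted p = 0.431). The difference was called without both T0901317 replicate 2 libraries (0.0367) and with only the groups compared in the fit (0.00299). The diet raised Timp1 by 5.18 in W/F mice (limma adjusted p = 7.18e-13) and by 2.11 in F/F mice, which already had 15.6, 9.23, 19.1 and 28.8 TPM on chow, 3.76 above W/W chow (limma adjusted p = 4.04e-09). T0901317 brought W/F mice to 0.299, 6.18, 0.488 and 0.321 TPM, where replicate 2 again stands out (-4.53, limma adjusted p = 3.45e-11), and F/F mice to 41.8, 24.7, 14.7 and 26.5 (-1.55, limma adjusted p = 0.00206). In W/W mice Timp1 went the other way, to 0.738, 2.68, 1.51 and 1.04 TPM, all above the 4 vehicle mice, a rise of 1.02 that was called after rescaling (limma adjusted p = 0.0301) but not as deposited (0.0700). The T0901317 response of W/F mice differed from that of W/W mice by -5.55 (limma adjusted p = 1.23e-09).

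Timp2, which both inhibits metalloproteinases and takes part in pro-Mmp2 activation with Mmp14 (ENSMUSG00000017466, chr11:118301069-118355740), stood at 4.48, 5.59, 5.35 and 8.87 TPM in W/W vehicle mice, 51.0, 57.5, 58.3 and 43.9 in W/F vehicle and 101, 89.2, 87.3 and 114 in F/F vehicle mice. The 3 groups do not overlap, and F/F was above W/F by 0.88 (SE 0.20, limma adjusted p = 0.00240). The diet raised it by 2.93 in W/F and 1.89 in F/F mice, and T0901317 lowered it by 2.28 in W/F (to 10.1 ± 1.7 TPM) and by 0.91 in F/F mice (to 52.7 ± 13.3). On chow F/F mice had 26.0 ± 5.4 TPM against 5.37 ± 1.39 in W/W (2.08, limma adjusted p = 3.92e-09). Timp3, the matrix-bound inhibitor, was 1.67 ± 0.54 TPM in W/W vehicle, 4.73 ± 1.28 in W/F vehicle and 8.82 ± 2.47 in F/F vehicle mice (F/F against W/W 1.87, limma adjusted p = 9.34e-09). Its fall of 0.86 with T0901317 in W/F mice was not called after rescaling (limma adjusted p = 0.0774), and Timp3 shares 21.3% of its exon length with Syn3 on the other strand, a gene with group means of 0.103 to 0.207 TPM. Timp4 passed the filter only through F/F vehicle mice, at 2.66, 8.13, 2.36 and 2.69 TPM, with replicate 2 far above the others. It was listed at 0 in all 4 W/W vehicle and all 4 W/F T0901317 mice and averaged 0.285 TPM in F/F chow and 0.295 in F/F T0901317 mice; since it was tested only because F/F vehicle mice were high, its differences from that group are given as values and not as a test result.

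The balance of proteases to inhibitors does not depend on how a library is scaled. Summed metalloproteinase TPM were 88.3 ± 12.4 in W/W vehicle, 341 ± 16 in W/F vehicle and 550.0 ± 35.0 in F/F vehicle mice, and summed Timp TPM 7.93 ± 2.33, 105 ± 6 and 187 ± 19 (SD, n = 4). The ratio of these sums was 10.6 ± 4.0 in W/W chow, 11.5 ± 1.8 in W/W vehicle and 7.93 ± 1.5 in W/W T0901317 mice. In W/F mice it was 10.6 ± 2.7 on chow, 3.27 ± 0.18 with vehicle and 8.37 ± 0.95 with T0901317, and in F/F mice 3.51 ± 0.49, 2.96 ± 0.31 and 3.64 ± 0.34. Each of the 4 W/F vehicle mice (3.04 to 3.42) and each F/F mouse (2.59 to 4.14) lay below each W/W and each other W/F mouse, whose lowest ratio was 6.09. Without Mmp19 the ratio was 6.07 ± 1.05 in W/W vehicle, 2.71 ± 0.19 in W/F vehicle and 2.73 ± 0.29 in F/F vehicle mice. With T0901317 the ratio without Mmp19 was 3.81 ± 0.39 in W/W (3.54 to 4.38), 4.97 ± 0.22 in W/F and 3.12 ± 0.15 in F/F mice (3.01 to 3.32), a smaller gap than with Mmp19. Timp1 was 2.03% of Timp TPM in W/W vehicle, 45.0% in W/F vehicle and 40.9% in F/F vehicle mice. No test was made on these sums, and a ratio of transcripts is not one of enzyme activities.

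**Figure D4:**
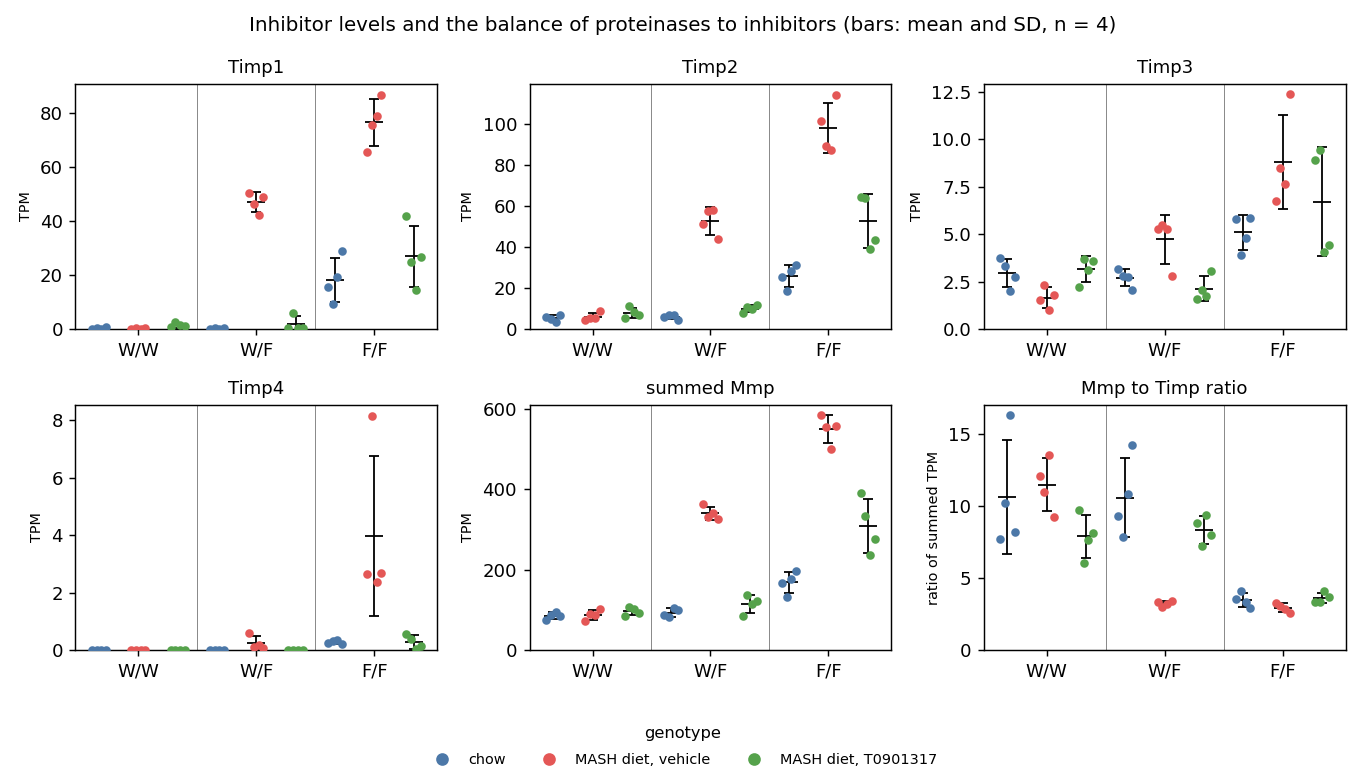
TPM of the 4 Timp genes, summed metalloproteinase TPM and the ratio of summed Mmp to summed Timp TPM in each mouse (points), with the mean and SD of 4 mice (bars), by genotype and treatment. Timp1 and Timp2 are near 0 or low in W/W mice and high in W/F vehicle and all F/F mice, and the ratio lies between 2.59 and 4.14 in those groups and above 6 in all other mice.

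Of the 3 procollagen N-proteinases, which cut the amino-terminal propeptide so that collagen fibrils can form, 2 were tested, Adamts2 and Adamts14. Both were called higher in W/F and in F/F than in W/W vehicle mice, on both scales. So were 61.6% and 69.3% of all genes (28.7% and 32.3% after rescaling). Adamts14 reached 1 TPM in only 2 W/W libraries, so it passed the filter through the mutant groups. Adamts3 averaged 0.169 TPM in W/F vehicle and 0.0858 in F/F vehicle mice and did not pass the filter. Adamts2 (ENSMUSG00000036545, chr11:50602084-50807573) stood at 0.818, 1.36, 0.982 and 1.59 TPM in W/W vehicle mice, 12.3, 8.94, 8.11 and 8.12 in W/F vehicle and 15.0, 20.1, 15.9 and 17.8 in F/F vehicle mice. The groups do not overlap, with F/F above W/F by 0.82 (SE 0.21, limma adjusted p = 0.00648). The diet raised it by 2.05 in W/F mice and T0901317 lowered it by 1.62, to 2.38 ± 0.66 TPM, while on chow F/F exceeded W/W by 1.88 (limma adjusted p = 5.16e-08). Adamts14 was 0.753 ± 0.209 TPM in W/W vehicle and 2.93, 6.22, 4.74 and 5.45 in F/F vehicle mice (1.71, limma adjusted p = 9.79e-11). With T0901317 F/F mice kept 7.24, 4.41, 4.88 and 4.98 TPM, overlapping vehicle, whereas W/F mice fell from 2.42 ± 0.12 to 0.765 ± 0.370 TPM (-0.98, limma adjusted p = 5.61e-06). With T0901317, F/F mice exceeded W/F mice by 1.86 (limma adjusted p = 7.14e-10).

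Of the 7 proteoglycanases, which cleave aggrecan and versican, 5 were tested. All 5 were called higher in F/F than in W/W vehicle mice on both scales, beside 69.3% of all genes (32.3% after rescaling). Adamts4 and Adamts9 reached 1 TPM in 0 W/W libraries and Adamts5 in 1, so these passed the filter through the mutant groups. Adamts1 averaged 3.86 TPM in W/W vehicle, 15.3 in W/F vehicle, 4.17 in W/F T0901317, 8.56 in F/F chow, 13.6 in F/F vehicle and 9.62 in F/F T0901317 mice. The diet raised Adamts1 in W/F mice by 1.86 (limma adjusted p = 4.44e-09), T0901317 lowered it by 1.67, and F/F exceeded W/W on chow by 1.01. Adamts5 was 0.502 ± 0.075 TPM in W/W vehicle and 6.28 ± 0.40 in F/F vehicle mice (2.28, limma adjusted p = 3.15e-12), and in W/F mice T0901317 took it from 3.06 ± 0.91 to 1.02 ± 0.21 TPM (-0.98). Adamts15 was 1 of only 2 genes of the set that T0901317 raised in W/W mice, a comparison in which 7.87% of all genes were called higher and 2.91% lower; after rescaling 5 genes of the set rose, beside 8.08%. It stood at 0.249, 1.02, 0.486 and 0.370 TPM in W/W vehicle mice and at 2.49, 1.92, 2.48 and 0.944 with T0901317, groups that overlap by 1 mouse (0.94, SE 0.18, limma adjusted p = 0.000636). In W/F mice T0901317 changed Adamts15 by -0.41 (limma adjusted p = 0.0474, and 0.657 after rescaling), and the responses of the genotypes differed by -1.35 (limma adjusted p = 6.05e-05).

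Adamts7, which cleaves cartilage oligomeric matrix protein and thrombospondins (ENSMUSG00000032363, chr9:90163069-90208071), was the only tested gene called higher than in W/W mice with T0901317 in both mutants on deposited TPM; after rescaling Mmp11 and Mmp15 were also called higher in W/F mice, and Adamts15 lower. W/W mice had 1.98, 2.72, 2.16 and 2.15 TPM with T0901317, W/F mice 4.27, 11.8, 6.36 and 6.02, and F/F mice 19.2, 20.7, 18.2 and 16.6, 3 groups that do not overlap. W/F exceeded W/W by 1.25 (SE 0.26, limma adjusted p = 0.00111; 1.07 without the T0901317 replicate 2 libraries of both genotypes), and F/F exceeded W/W by 2.60 (limma adjusted p = 1.41e-09). With vehicle it was 15.3 ± 1.2 TPM in W/F and 17.8 ± 2.3 in F/F mice, so that T0901317 lowered it by 1.08 in W/F mice and changed it by 0.07 in F/F mice without a call (limma adjusted p = 0.851). W/W mice averaged 4.0 TPM with vehicle and 2.25 with T0901317, overlapping groups with a change of -0.55 that was not called (limma adjusted p = 0.182). Its neighbour on the other strand, Tbc1d2b, overlaps 1.94% of its exons. Adamts10, which acts on fibrillin microfibrils, averaged 4.72 TPM in W/W vehicle, 18.5 in W/F vehicle, 7.69 in W/F T0901317, 22.3 in F/F vehicle and 20.1 in F/F T0901317 mice, with F/F above W/W on vehicle by 2.05. Adamts13, the von Willebrand factor protease made by stellate cells, was the tested gene with the smallest fold change between F/F and W/W vehicle mice, -0.02 (limma adjusted p = 0.922), with 1.57, 2.26, 2.41 and 2.71 TPM in W/W and 2.10, 2.45, 1.81 and 2.33 in F/F mice; after rescaling it was lower by 0.57 (limma adjusted p = 0.00292).

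Of the Adamts-like genes, Adamtsl2, a fibrillin and latent TGF-beta binding protein (ENSMUSG00000036040, chr2:27079379-27108981), stood at 1.67, 1.92, 1.49 and 2.94 TPM in W/W vehicle, 24.3, 11.5, 10.3 and 8.89 in W/F vehicle and 22.0, 20.9, 19.3 and 23.5 in F/F vehicle mice. W/F replicate 1 was the high one of its group and the highest of the 12 vehicle mice. F/F exceeded W/W by 2.92 with vehicle (SE 0.25, limma adjusted p = 1.56e-11) and by 2.40 on chow, where F/F mice had 13.1 ± 4.0 TPM. T0901317 lowered Adamtsl2 by 1.28 in W/F mice, to 4.73 ± 1.26 TPM, while F/F mice on T0901317 had 24.2 ± 8.5. Adamtsl4 averaged 1.79 TPM in W/W vehicle, 6.08 in W/F vehicle and 9.63 in F/F vehicle mice (F/F against W/W 1.93, limma adjusted p = 1.15e-11), and fell with T0901317 by 1.07 in W/F and by 0.57 in F/F mice, the latter not called after rescaling (limma adjusted p = 0.142).

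All 5 lysyl oxidases were called higher in W/F and in F/F than in W/W vehicle mice, on both scales. Of all genes, 61.6% and 69.3% were called higher there (28.7% and 32.3% after rescaling). Lox reached 1 TPM in 0 W/W libraries and Loxl4 in 2, so these passed the filter through the mutant groups. Lox was at 0.193, 0.0631, 0.189 and 0.184 TPM in W/W vehicle mice, 5.95, 5.60, 5.27 and 5.72 in W/F vehicle and 5.48, 10.2, 8.56 and 9.12 in F/F vehicle mice. The diet raised it by 2.51 in W/F (SE 0.20, limma adjusted p = 4.69e-12) and by 1.52 in F/F mice, which had 2.41, 1.02, 2.44 and 3.36 TPM on chow against 0.134 ± 0.0076 in W/W (1.49, limma adjusted p = 6.10e-07). T0901317 took Lox to 0.0552, 0.813, 0.270 and 0.119 TPM in W/F mice (-2.37) and to 3.06, 2.37, 1.44 and 2.74 in F/F mice (-1.46, limma adjusted p = 3.56e-06), with a group mean of 2.40 TPM beside 2.31 in F/F chow mice and 0.526 in W/W T0901317 mice.

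Loxl1, the crosslinker of elastin (ENSMUSG00000032334, chr9:58287738-58313186), stood at 1.22, 1.54, 1.07 and 2.20 TPM in W/W vehicle, 15.3, 9.49, 6.88 and 10.1 in W/F vehicle and 21.5, 27.1, 25.5 and 21.4 in F/F vehicle mice. F/F was above W/F by 1.16 (SE 0.24, limma adjusted p = 0.000968). The diet raised it by 2.34 and T0901317 lowered it by 1.60 in W/F mice, and on chow F/F exceeded W/W by 2.37 (limma adjusted p = 7.61e-09). In F/F mice on T0901317 the values of 28.0, 19.8, 10.9 and 14.0 TPM overlapped vehicle (-0.45, limma adjusted p = 0.136). Loxl2, which crosslinks collagen IV and fibrillar collagen (ENSMUSG00000034205, chr14:69609068-69695834), was the other gene that T0901317 raised in W/W mice, from 0.954, 1.07, 0.615 and 1.36 TPM to 1.89, 3.54, 2.53 and 1.55, without overlap (0.73, SE 0.18, limma adjusted p = 0.00613; 0.58 without the replicate 2 libraries). In W/F mice it rose with the diet by 2.36, to 9.13 ± 1.21 TPM, and fell by 1.99 with T0901317, to 1.61 ± 0.80. F/F mice had 5.50 ± 1.38 TPM on chow (1.70 above W/W), 13.3 ± 1.4 with vehicle and 7.59 ± 1.32 with T0901317 (-0.75, limma adjusted p = 0.00264). Of the 50-base stretches of Loxl2, 25.3% also occur in other transcripts of the annotation, so its level is less certain than that of the others. Loxl3 averaged 1.20 TPM in W/W vehicle, 5.04 in W/F vehicle and 6.17 in F/F vehicle mice and rose by 1.59 with the diet in W/F mice, with 11.6% of its exons overlapping Htra2. Loxl4 varied widely between mice, at 1.16, 4.59, 3.33 and 2.04 TPM in F/F vehicle mice against 0.387 ± 0.297 in W/W vehicle (1.38, limma adjusted p = 2.81e-05), and its change with the diet in W/F mice was not called (0.60, limma adjusted p = 0.0530).

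**Figure D5:**
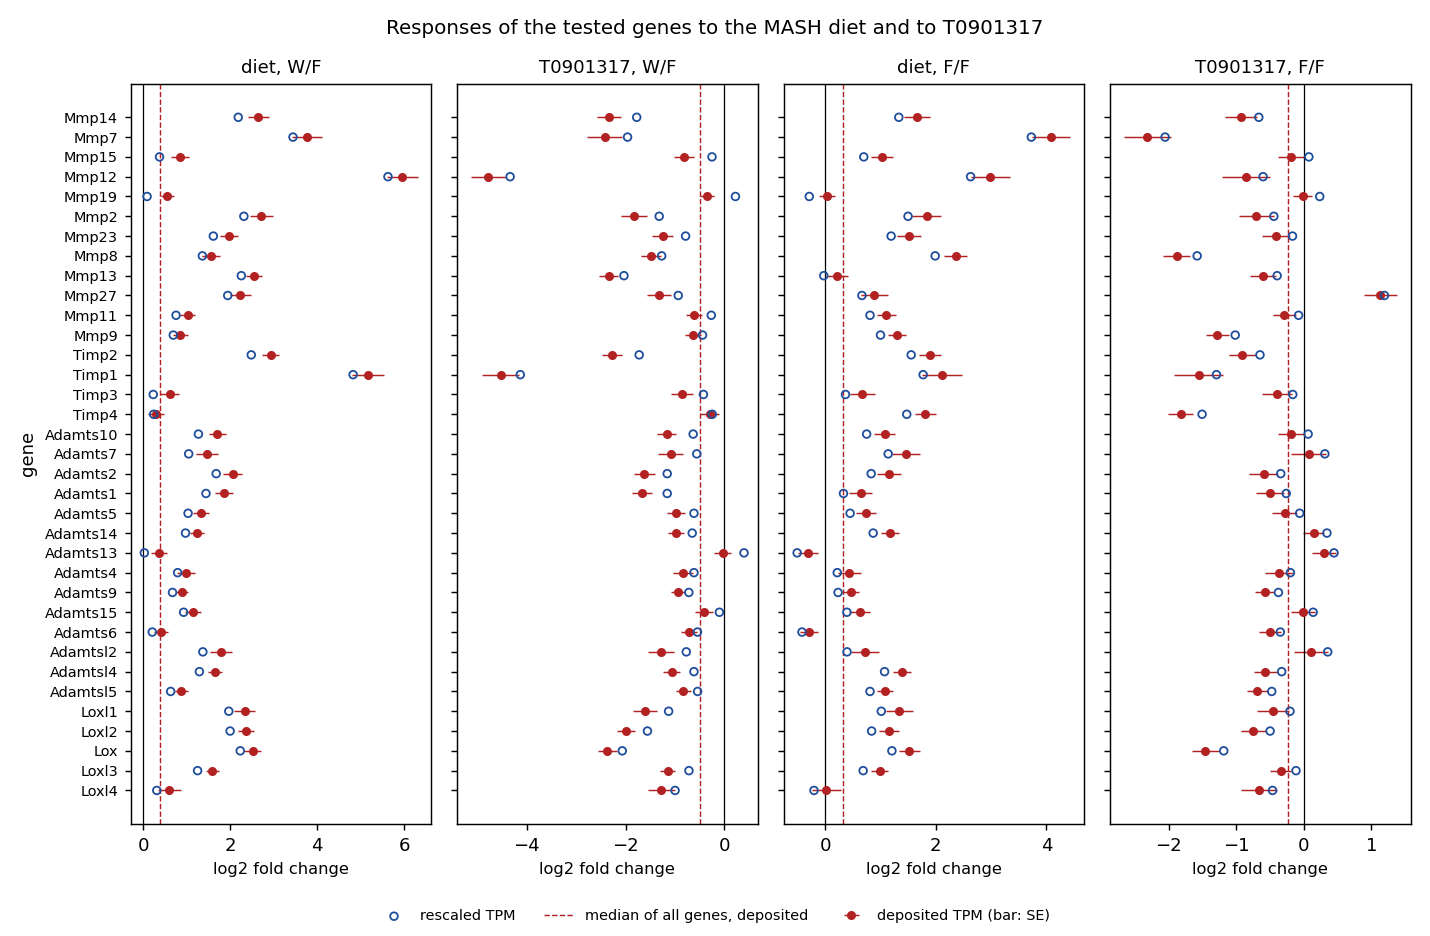
Log2 fold change of the 35 tested genes for the MASH diet and for T0901317 in W/F and F/F mice, on deposited TPM with its SE (filled points and bars) and on rescaled TPM (open points); the dashed line is the median of all genes tested on deposited TPM (0.39, -0.49, 0.32 and -0.24 from left). Mmp12 and Timp1 move most in W/F mice, Mmp7 moves most in F/F mice, and Mmp27 lies to the right of 0 for T0901317 in F/F mice.

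The genotypes' responses were also compared directly. The diet response was larger in W/F than in W/W mice for 33 of 35 genes (94.3%), beside 49.5% of all genes, and larger in F/F for 26 (74.3%), beside 41.5%. It was smaller for 0 genes of the set in both, beside 5.13% and 4.54%. After rescaling these counts were 28 larger in W/F, beside 21.8%, and 20 larger and 1 smaller in F/F, beside 15.0% and 11.9%. The T0901317 response was more negative in W/F than in W/W mice for 32 (91.4%), beside 53.2%, and in F/F for 21 (60.0%), beside 27.2%, with Mmp27 more positive, beside 3.29%. After rescaling it was more negative for 28 in W/F, beside 24.7%, and for 13 in F/F, beside 10.3%, with 2 more positive, beside 7.22%. Between the mutants on vehicle, 18 of 35 were higher in F/F than in W/F mice (51.4%), beside 19.0%, and 3 lower (8.57%), beside 2.3%: Mmp13, Mmp27 and Mmp19, on both scales. After rescaling 13 were higher, beside 6.1%, and 3 lower, beside 4.54%. Mmp9 and Timp4 are among the higher genes on both scales, and were tested only because F/F vehicle mice were high. After T0901317, 31 of 35 were higher in F/F than in W/F mice (88.6%), beside 58.5%, and 0 lower, beside 4.08%; on chow 27 were higher (77.1%), beside 37.9%, and 0 lower, beside 3.43%. After rescaling 27 were higher and 1 lower with T0901317, beside 22.5% and 17.4%, and 25 were higher on chow, beside 17.1%.

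Related lists moved with the set. Of 21 matrix proteins that these enzymes act on, 19 were tested and 18 rose in F/F against W/W vehicle mice, beside 69.3% of all genes. After rescaling 18 rose and 1 fell, beside 32.3% and 26.5%. Their median log2 fold change was 2.94 (2.24 after rescaling), against 0.70 for all genes as deposited. Collagen genes led: Col1a1 averaged 3.89 TPM in W/W vehicle, 126 in W/F vehicle, 12.2 in W/F T0901317, 269 in F/F vehicle and 108 in F/F T0901317 mice, and Col1a2 rose by 5.19. Fn1, fibronectin, was not called as deposited (0.26) and was lower after rescaling (-0.57), and Vwf rose by 1.14. In W/W mice T0901317 raised 9 of the 19, beside 7.87% of all genes, and 11 after rescaling, beside 8.08%. Of 16 tested collagen processing and crosslinking enzymes outside the set, 14 rose and 1 fell in F/F against W/W vehicle mice, beside 69.3% and 7.13% of all genes; after rescaling 11 rose and 4 fell, beside 32.3% and 26.5%. Serpinh1, the collagen chaperone, rose by 3.29 and Pcolce, the enhancer of procollagen C-proteinase, by 2.78, while Pcolce2 fell by 0.79 and the lysyl hydroxylase Plod1 differed by -0.06 without a call. Of 22 other matrix proteases, activators and inhibitors, 18 rose and 2 fell, and after rescaling 15 rose and 6 fell, beside the same shares. Ctsk, a collagen-degrading cathepsin, rose by 4.86 (1.22 to 63.6 TPM) and Adam8, a leukocyte sheddase, by 4.76, while Plg, which encodes plasminogen, fell by 0.62 (1920 to 1250.0 TPM) and Pcsk6 by 0.66. Of 8 stellate cell and fibroblast markers, 8 rose in W/F against W/W vehicle mice, beside 61.6% of all genes, and 8 in F/F, beside 69.3%. After rescaling 7 rose in W/F, beside 28.7%, and 6 in F/F, beside 32.3%, with 1 lower in F/F, beside 26.5%. Their summed levels were 123 to 173 TPM in W/W, 458 to 556 in W/F and 604 to 797 in F/F vehicle mice. The 6 endothelial markers summed to 67.2 to 77.6, 46.1 to 64.8 and 65.2 to 104 TPM in those groups. The part of these cells in the results was not tested.

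The 21 genes that did not pass the filter reached at most 2.70 TPM in any library. That highest value was Mmp24, and in F/F vehicle mice Adamtsl1 averaged 1.12 TPM, Adamts16 1.06, Adamts12 0.801 and Mmp3 0.801. Adamts18 was above 0 in 1 of 36 libraries and Adamts19 in 3. The 4 smaller tested genes not described above, Adamts4, Adamts6, Adamts9 and Adamtsl5, averaged 2.24, 0.977, 2.53 and 2.51 TPM in F/F vehicle mice.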

How the data were processed

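The values are TPM per gene, as the authors deposited them, for 49315 genes in 36 libraries. Reads were handled with Trimmomatic 0.36, STAR 2.5.2b and featureCounts of Subread 1.5.2 on GRCm38 (mm10), per the submitters' processing notes; the strand setting and annotation of counting are not given in the sources used here. Coordinates and exon overlaps are from GENCODE for GRCm38. Whole reads were recovered for 93.7% to 95.7% of low values (tolerance 0.1 of a read, 20.0% by chance), only to give the depth.

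Values were tested with limma 3.58.1 in R 4.3.3 on log2(TPM + 1), over all 9 groups (27 residual degrees of freedom) in 19 contrasts, for genes that reached 1 TPM in 4 or more libraries, with a threshold of 0.05 after Benjamini-Hochberg adjustment in each contrast. The model was tested on simulated data first. Rescaled TPM were divided by median-of-ratios factors over 13056 genes. Other alternatives were the pseudocount, the filter, the samples fitted, a replicate block and libraries left out.

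Genes were named if a group mean reached 5 TPM, and Timp and Lox genes at any level; from the rest, the largest and smallest fold change between F/F and W/W vehicle mice, those at 0 throughout and those opposite to their family. The genes of the set and all lists were chosen with earlier results of these data known. Replicate numbers do not pair the mice: same-numbered libraries of different groups had deviations correlated from -0.174 to 0.297 over 144 pairs (median 0.013).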

Additional observations from a re-analysis of the deposited data

Results flagged for a closer look

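In 17 of 232 combinations of gene and group, 1 mouse stood apart from the other 3 by more than Dixon's criterion for the gap over the range, where chance gives about 1 in 20. T0901317 replicate 2 of the W/F mice was the high one for Mmp12 (7.97 TPM), Timp1 (6.18), Loxl3 (2.55) and Mmp8 (0.269), and T0901317 replicate 2 of the W/W mice for Mmp12 (3.03), Mmp13 (0.728) and Timp4 (0.0183). Among vehicle mice the high values were Adamtsl2 in W/F replicate 1 (24.3), Timp4 in F/F replicate 2 (8.13), Adamtsl4 in W/W replicate 2 (2.15), and Loxl3 (1.92) and Mmp12 (0.896) in W/W replicate 4. The low values were Timp3 in W/F vehicle replicate 4 (2.81), Mmp8 in W/F vehicle replicate 1 (1.10) and Lox in W/W vehicle replicate 2 (0.0631). On chow, W/F replicate 3 was high for Mmp14 (18.1) and W/F replicate 4 for Timp4 (0.0198).

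Responses that differed from those of W/W mice by limma's interaction test were called for 32 of 35 genes with T0901317 in W/F, 22 with T0901317 in F/F, 33 with the diet in W/F and 26 with the diet in F/F mice. The T0901317 response differed by -2.69 for Mmp7 and by 0.96 for Mmp27 in F/F mice, and by -5.55 for Timp1 and -1.35 for Adamts15 in W/F mice, on the log2 scale.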

How the results depend on the processing

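Genes of the set that W/W mice changed with T0901317 numbered 2, but 5 with a pseudocount of 0.1 and 5 on rescaled TPM; with the diet they numbered 0, but 4 and 1, and 0 to 1 when 1 library was left out in turn. The 1 gene that differed between W/F and W/W mice with T0901317 became 4 on rescaled TPM, 2 with only the groups compared in the fit and 1 to 2 with 1 library left out. With the replicate number as a block this count was also 2, and no other count moved by over 1.5 times under the block (33 for T0901317 in W/F and 18 in F/F mice). A filter of 5 TPM in 4 libraries tested fewer genes of the set and so called 21 for T0901317 in W/F, 10 for T0901317 in F/F, 21 for the diet in W/F, 21 and 20 for the vehicle mice of W/F and of F/F genotype set against W/W mice, and, between both mutants, 13 with vehicle and 20 with T0901317; for the responses relative to W/W it called 20 (T0901317, W/F), 14 (T0901317, F/F) and 21 (diet, W/F). Leaving out 1 library gave 14 to 20 genes for T0901317 in F/F, 16 to 22 between the mutants with vehicle, and 15 to 25 for the T0901317 response of F/F relative to W/W. Rescaling turned the sign of 4 fold changes: Mmp13 with the diet in F/F mice (-0.027), and Mmp19 between W/F and W/W vehicle mice (-0.15), with T0901317 in W/F mice (0.22) and between F/F and W/W vehicle mice (-0.79). Leaving out 1 library in turn moved that last difference between -0.074 (without replicate 1 of the W/W mice) and 0.117 (without their replicate 4), and that of Adamts13 between -0.128 and 0.049 (without the same 2 mice), with 0.036 when F/F replicate 3 was left out and 0.008 without W/W replicate 3. The cause of these changes was not tested. Depth limits the 21 genes below the filter, and TPM give shares of a library, not amounts per liver.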
